A study of Mus musculus with 6 samples.

Results

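Immediate early genes are the first genes a cell transcribes after a stimulus such as a growth factor, a neurotransmitter or mechanical handling, and they need no new protein for it. The 10 genes described here were chosen by symbol: the FOS family genes Fos, Fosb and Fosl2, the JUN family genes Jun, Junb and Jund, the zinc finger factors Egr1 and Egr2, the nuclear protein gene Ier2 and the synaptic plasticity gene Arc. All 10 of 10 were among the 23337 gene rows of the count files, and all 10 had enough counts to be tested, as did 13925 genes in all. Nuclear RNA of mouse neural precursor cells was sequenced, from cultures of the dorsal forebrain of embryos at E13.5 and carried to passage 6 to 7 with EGF and basic FGF at 20 ng/ml each in heparin at 5 ug/ml. The groups were 3 lines labelled Fmr1 WT (lines 3, 8 and 19) and 3 lines labelled Fmr1 KO (lines 3, 13 and 16), described in the design as independent lines. Nothing on the knockout allele, the mouse strain or the number of embryos behind a line is stated in the labels. Cells were grown with both growth factors present and detached with Accutase near 80% confluency before the nuclei were isolated. No acute stimulus is named in the labels. The values are those after detachment, and the levels before it were not measured.

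FOS and JUN proteins pair through leucine zippers to form AP-1, a transcription factor that binds the sequence TGANTCA, and they pair in many combinations: JUN proteins can bind as JUN-JUN or FOS-JUN dimers, whereas FOS proteins need a partner. EGF and FGF receptors reach these genes through the MAP kinases, which act on the serum response factor SRF with its ELK partners and on CREB. The messages are short-lived, so their level follows recent transcription closely, and several of their products act back on the pathway that induced them. In neurons, Arc, Egr1, Fos and Npas4 are used as marks of recent activity. Arc encodes a cytoskeleton-associated protein that removes AMPA receptors from synapses, and its message is one of those known to be bound by FMRP, the product of Fmr1.

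Total counts ran from 18702738 to 26789522 per library, and values are given in CPM, counts scaled to the library size and corrected by the trimmed mean of M values. A single count then equals 0.0366 to 0.0542 CPM. Fmr1 itself went against the label in 1 library, at 371 CPM in the library labelled KO line 3. It was at 188 and 153 CPM in KO lines 13 and 16 and at 223 to 274 CPM in WT. Between the labels Fmr1 was not called (log2 fold change -0.105, edgeR adjusted p = 0.795). Without KO line 3 it was called lower (-0.58, edgeR adjusted p = 0.00152). Each direction below therefore compares the labels only. Xist, the RNA of the inactive X chromosome, was high in WT lines 3 and 8 and in KO line 3 and low in the other 3 libraries. The neural precursor markers were present in every library (Sox2 at 98.1 to 146 CPM, Nes at 1786 to 2869 CPM), and of the 12 only Vim passed the test, at a log2 fold change of -0.48, a call that was lost without WT line 3, 8 or 19 or KO line 13 (adjusted p from 0.0652 to 0.0993). Some others passed in other settings. Hes5 was called higher without WT line 8 (log2 fold change 2.48, edgeR adjusted p = 0.00181). Fabp7 was called lower without KO line 16 (-0.47, edgeR adjusted p = 0.0282). With Xist state as a covariate, Notch1 and Nes were called lower (-0.69 and -0.31, edgeR adjusted p = 9.04e-04 and 0.0272). Of 9 microglia and macrophage markers, Tmem119 and Tyrobp had no counts in any library, which at a floor of 3 counts allows up to 0.163 CPM, while the lysosomal gene Cd68 was at 19.2 to 32.9 CPM in every library and made up most of the sum. Only Cd68 and P2ry12 of that list were tested, and neither was called in the fit of genotype alone over all libraries. Cd68 was called lower without KO line 13 (-0.47, edgeR adjusted p = 0.0494) and with Xist state as a covariate (-0.46, edgeR adjusted p = 0.014).

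Some markers of other neural lineages differed between genotypes, in a fit in which 21.8% of all tested genes were called higher and 20.4% lower. Of 9 tested neuron markers 2 rose, 2 fell and 5 were not called (median log2 fold change 0.31). Dcx, a microtubule protein gene of young neurons, was at 0.271 to 0.988 CPM in WT and 6.74 to 18.3 CPM in the KO-labelled libraries, and the synaptic gene Snap25 at 0.651 to 1.61 and 4.51 to 9.83 CPM. Gad2 and Gad1, which encode the enzymes of GABA synthesis, fell, Gad2 from 87.2 to 157 CPM to 4.97 to 6.61 CPM. The summed level of 12 neuron genes, 119 to 181 CPM in WT and 46.3 to 70.2 CPM in the KO-labelled libraries, therefore follows Gad2 and not the list. Of 6 tested oligodendrocyte lineage markers 3 rose and 0 fell (median 1.53). Pdgfra, the receptor gene of oligodendrocyte precursors, was at 1.11 to 3.58 CPM in WT and 37.8 to 40.6 CPM in the KO-labelled libraries. Sox10 was at 0.152 to 0.658 and 2.46 to 3.68 CPM, and Gpr17 at 0 to 0.101 CPM in WT and 2.62 CPM in each KO-labelled library. Their sum over 9 genes, 351 to 404 CPM in WT and 414 to 603 CPM in the KO-labelled libraries, is mostly Olig1, which was not called. Of 8 astrocyte markers 4 fell and 0 rose (median -1.002), with a sum of 375 to 648 CPM in WT and 232 to 317 CPM in the KO-labelled libraries. They were Agt, Gja1, Gfap and Aldh1l1, the last of which lost its call without KO line 3 (adjusted p = 0.202). Endothelial and mural genes were low, at 7.21 to 8.87 CPM in WT and 11.7 to 32.1 CPM in the KO-labelled libraries over 8 genes. Of 5 tested, Acta2, Kdr and Pdgfrb rose and Tek fell. The call of Kdr was lost without WT line 3 or 19, that of Pdgfrb without WT line 19, and that of Tek without any single library other than KO line 3 (adjusted p from 0.0575 to 0.144). Fibroblast genes summed to 28.0 to 34.3 CPM in WT and 16.4 to 34.5 CPM in the KO-labelled libraries, and of 4 tested, Col1a1 and Pdgfrb rose and Foxc1 fell. Col3a1 was not called, at 3.95 to 5.965 CPM in WT and 12.9, 0.254 and 1.63 CPM in KO lines 3, 13 and 16. Without KO line 3 it was called lower (log2 fold change -2.46, edgeR adjusted p = 0.00784). The part of these shifts in the values below was not tested.

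The sequences upstream of 3 members that were lower in the KO-labelled libraries, and of Egr2, which was not called, are shown as examples that carry candidate sites for the growth factor input. They are the 250 bases before the RefSeq start site (GRCm38.p6), read along the gene's strand, and 7 of the 10 members had an entry. Each of the 4 windows shown lies outside the exons of the GENCODE annotation. Capitals mark matches on either strand to TGACG, the core of the cyclic AMP response element, to the CArG box that SRF binds, to the AP-1 site TGANTCA, to the EGR site GCGNGGGCG, and to CTANNNNTAG, a form of the site bound by MEF2 factors.
Fos, chr12:85473640-85473889, plus strand: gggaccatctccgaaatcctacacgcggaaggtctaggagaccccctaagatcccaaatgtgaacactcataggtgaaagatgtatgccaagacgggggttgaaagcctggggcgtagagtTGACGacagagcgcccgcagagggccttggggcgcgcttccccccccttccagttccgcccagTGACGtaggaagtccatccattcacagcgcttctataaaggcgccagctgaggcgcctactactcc
Jun, chr4:95052223-95052472, minus strand: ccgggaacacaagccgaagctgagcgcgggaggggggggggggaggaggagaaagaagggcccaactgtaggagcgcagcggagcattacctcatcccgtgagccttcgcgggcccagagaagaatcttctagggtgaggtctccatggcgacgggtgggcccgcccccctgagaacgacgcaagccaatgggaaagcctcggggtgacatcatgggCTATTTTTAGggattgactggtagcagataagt
Junb, chr8:84978749-84978998, minus strand: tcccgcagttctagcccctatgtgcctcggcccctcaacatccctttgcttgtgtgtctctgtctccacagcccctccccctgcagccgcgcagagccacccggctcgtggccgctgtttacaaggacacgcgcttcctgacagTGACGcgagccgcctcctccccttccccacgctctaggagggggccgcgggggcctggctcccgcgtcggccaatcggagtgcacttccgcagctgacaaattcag
Egr2, chr10:67537619-67537868, plus strand: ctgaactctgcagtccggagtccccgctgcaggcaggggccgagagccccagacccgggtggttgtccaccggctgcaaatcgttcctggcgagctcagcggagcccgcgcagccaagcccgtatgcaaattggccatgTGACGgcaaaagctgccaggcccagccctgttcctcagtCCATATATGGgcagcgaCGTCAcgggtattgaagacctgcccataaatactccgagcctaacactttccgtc

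The Fos window held TGACG at 129 and at 66 bases before the start, the Junb window held it at 106 bases before, and the Egr2 window held it on the plus strand and, as CGTCA, on the minus strand. This core is common: 17.8% of the 32851 windows of this length in the RefSeq table, which holds several windows for some genes, carry it. The CArG box of Egr2 and the MEF2 form in Jun are rarer, in 1.47% and 3.20% of windows. The AP-1 pattern TGANTCA was in 6.75% of all windows and the EGR pattern in 4.70%, and neither pattern was in any of the 4 shown. Only exact letters were searched for, so a longer form such as tgacatca, present in the Jun window, was not marked. Of the members not shown, Fosb and Fosl2 held the EGR site, Fosb also held TGACG, and Jund held no marked site. The Jund window ended at base 70697738 of chromosome 8, upstream of the GENCODE start of Jund at 70698949. It therefore does not cover the bases next to that start. Further windows of Egr2 were not shown. A match is a run of letters and not a measured binding site, and a window of this length does not reach more distant elements.

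Of the 10 genes, 4 were lower in the KO-labelled libraries, 1 was higher and 5 were not called by edgeR's quasi-likelihood test at an adjusted p under 0.05. Over all 13925 tested genes 20.4% were called lower, 21.8% higher and 42.3% in either direction, so a call in 5 of 10 members is close to the share among all genes. The values of WT and KO-labelled lines did not overlap for 5 of 10 members, beside 54.3% of all tested genes. The 4 that fell, Fos, Fosl2, Jun and Junb, are among the 6 AP-1 subunit genes of the list, and the 1 that rose was Arc. Of the other 2 AP-1 genes, neither Fosb (log2 fold change -0.94) nor Jund (0.59) was called. The median log2 fold change of the members was -0.27, beside 0.01 over all tested genes. Counts of nuclear RNA from whole cultures cannot tell fewer cells of a type from less RNA per nucleus. RNA outside the nucleus was not measured in these libraries, so the differences are those of nuclear levels. In the plot of values by line, the 3 WT points lie above the 3 KO points for Fos, Fosl2, Jun and Junb, and below them for Arc.

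**Figure D1:**
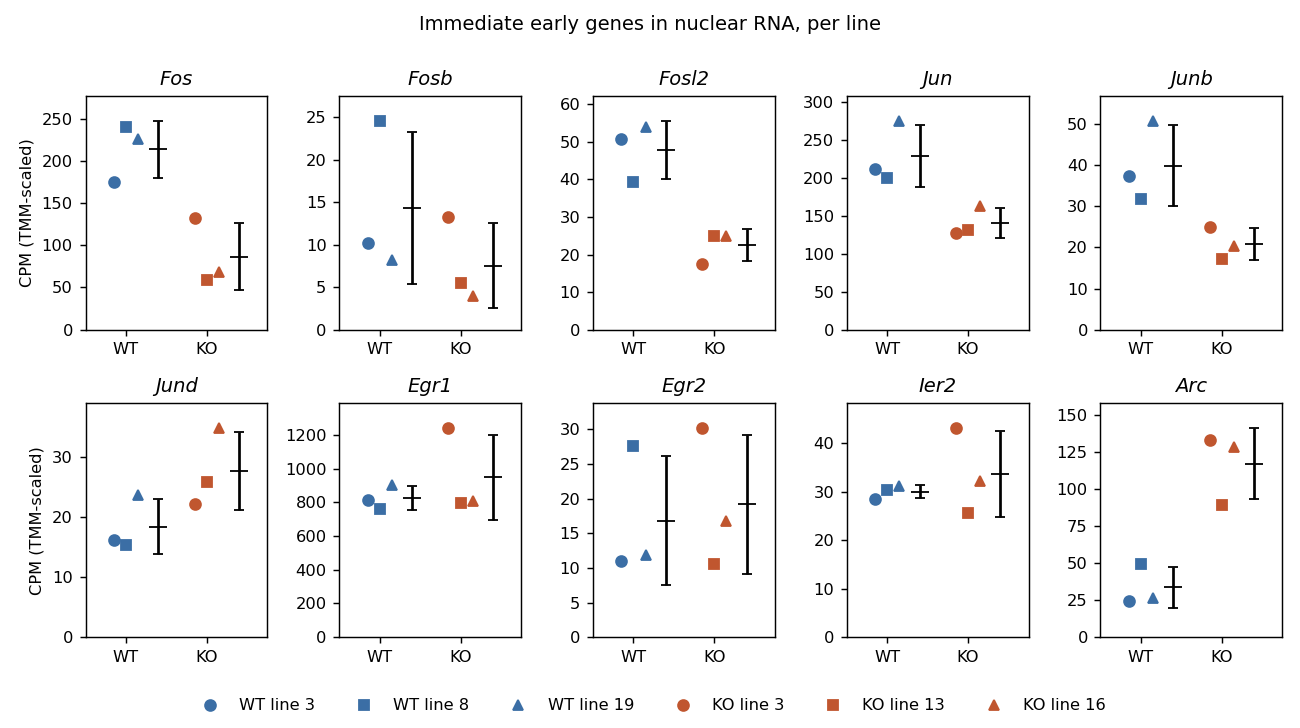
CPM of each of the 10 genes in every library, on a linear axis from 0 with its own scale per gene. Coloured points are lines, and the black bar beside each group is the mean ± SD over 3 lines. Arc lies at 24.5 to 49.6 CPM in WT and 89.3 to 133 CPM in the KO-labelled libraries, while the groups of Egr1, Egr2, Ier2, Fosb and Jund overlap.

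Fos, the prototype of the family, had the largest fall of the 10. It was at 176, 240 and 226 CPM in WT lines 3, 8 and 19, and at 132, 58.7 and 69.0 CPM in KO lines 3, 13 and 16. The groups did not overlap, but KO line 3 lay nearer to WT line 3 than to the other KO lines. Its fall was -1.31 on the log2 scale (SE 0.28, edgeR adjusted p = 0.00573), a 2.48-fold fall. Without the library labelled KO line 3 it was -1.74 (SE 0.14, edgeR adjusted p = 2.36e-06).

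Fosl2, which encodes FRA-2, a FOS protein that lacks the strong activation domain of FOS, was at 50.7, 39.2 and 53.9 CPM in WT lines 3, 8 and 19. It was at 17.6, 24.8 and 25.0 CPM in KO lines 3, 13 and 16, so that here KO line 3 was the lowest library and not the nearest to WT. Its log2 fold change was -1.09 (SE 0.17, edgeR adjusted p = 0.0013).

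Fosb, whose protein and its stable short form accumulate in neurons after repeated stimulation, was the least abundant member and the most variable. It was at 10.2, 24.6 and 8.13 CPM in WT lines 3, 8 and 19, and at 13.2, 5.46 and 3.90 CPM in KO lines 3, 13 and 16. WT line 8 stood above the other WT lines and KO line 3 above both, so the groups overlapped. Its log2 fold change was -0.94 (SE 0.51, edgeR adjusted p = 0.166) and was not called, and its 95% interval ran from -2.08 to 0.21. It passed only in limma-voom with sample weights (log2 fold change -1.17, adjusted p = 0.0204).

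Jun, which can drive proliferation and is itself an AP-1 target, was at 212, 199.6 and 275 CPM in WT lines 3, 8 and 19. It was at 127, 132 and 163 CPM in KO lines 3, 13 and 16, without overlap. For Jun the log2 fold change came to -0.70 (SE 0.15, edgeR adjusted p = 0.00596), a 1.63-fold fall. Junb, which encodes a JUN protein that often opposes JUN in cell growth, was at 37.2, 31.7 and 50.8 CPM in WT lines 3, 8 and 19. In KO lines 3, 13 and 16, Junb was at 25.0, 17.1 and 20.4 CPM. Its log2 fold change was -0.94 (SE 0.20, edgeR adjusted p = 0.00537).

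Jund, the JUN member that is least dependent on stimulation, lay on the other side of 0. It was at 16.2, 15.3 and 23.6 CPM in WT lines 3, 8 and 19, and at 22.1, 25.9 and 34.8 CPM in KO lines 3, 13 and 16. WT line 19 lay above KO line 3, so the groups overlapped by that pair. Its log2 fold change, 0.59 (SE 0.21, edgeR adjusted p = 0.0501), fell just short of the threshold, and Jund was called higher in 12 of 16 other settings, with adjusted p-values from 5.67e-05 to 0.167. Among the single libraries left out, it passed without WT line 19 (adjusted p = 0.019) and without KO line 3 (adjusted p = 0.0117). Jund shares 877 exon bases with an antisense gene, Gm11175, Junb shares 173 with Prdx2 and Jun shares 232 with Junos, each on the opposite strand. With the strand setting of the counting not given in the sources used here, reads of such pairs cannot be told apart. Prdx2, at 110 ± 18.4 CPM in WT and 103 ± 21.7 CPM in KO-labelled libraries (SD, n = 3 each), was not called. The other 2 partners had no row under these symbols among the genes counted.

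Taken per kilobase of exon and as shares of the JUN family in each library, the 3 genes kept the order Jun first in every line, while the lower ranks changed. Jun held 71.8% ± 1.39 of the family in WT and 63.3% ± 0.953 in the KO-labelled libraries (SD, n = 3 each). Jund held 10.9% ± 0.561 in WT and 23.6% ± 2.62 in the KO-labelled libraries, with every KO line (20.7%, 24.2% and 25.8%) above every WT line (10.5%, 10.7% and 11.6%). These shares do not depend on the scaling of the libraries. The higher share of Jund in part restates the falls of Jun and Junb called above, and Jund itself was not called. In the FOS family, by contrast, Fos held 92.5% ± 0.899 and 90.5% ± 2.79, and the groups overlapped for all 3 genes. A comparison of 3 lines with 3 cannot give an exact permutation p below 0.1, so shares and ratios within a library are given as values.

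**Figure D2:**
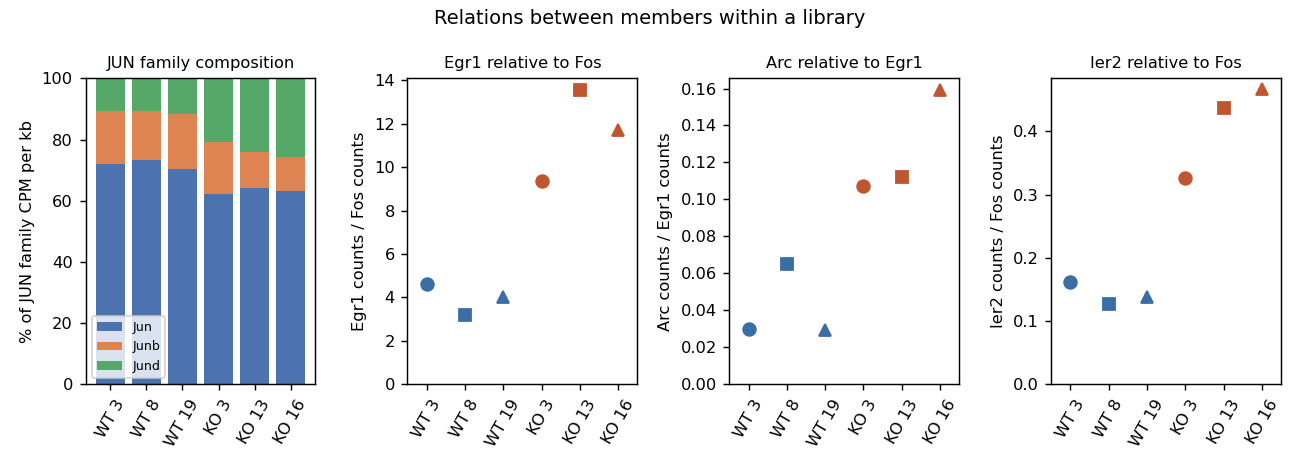
Left, the percentage of JUN family CPM per kilobase held by Jun, Junb and Jund in each library. The other panels give ratios of raw counts within a library on linear axes from 0, blue for WT and orange for KO. Egr1 over Fos is 3.17 to 4.64 in WT and 9.39 to 13.6 in the KO-labelled libraries.

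Egr1, the growth factor-induced zinc finger factor also known as Zif268 or Krox24, was the most abundant member and was not called. It was at 815, 761 and 904 CPM in WT lines 3, 8 and 19, and at 1239, 796 and 808 CPM in KO lines 3, 13 and 16. KO line 3 was the highest of all 6, and the other KO lines lay inside the WT range. Between the groups the log2 fold change was 0.20 (SE 0.18, edgeR adjusted p = 0.408), with a 95% interval from -0.21 to 0.60, so a change of up to 1.52-fold upward is within its error. Without the library labelled KO line 3 the estimate was -0.04 (adjusted p = 0.781).

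Egr2, or Krox20, which is needed for hindbrain segmentation and for Schwann cell myelination, was at 11.0, 27.6 and 11.9 CPM in WT lines 3, 8 and 19. It was at 30.1, 10.6 and 16.8 CPM in KO lines 3, 13 and 16. The high library in each genotype was the one that was also highest for Fosb: WT line 8 and KO line 3. The log2 fold change was 0.19 (SE 0.43, edgeR adjusted p = 0.755) and its 95% interval, -0.78 to 1.15, is wide.

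Ier2, a short nuclear protein induced together with Fos and Egr1, was the steadiest member in WT, at 28.5, 30.4 and 31.2 CPM, and was at 43.1, 25.7 and 32.2 CPM in KO lines 3, 13 and 16. It was not called (log2 fold change 0.16, SE 0.18, edgeR adjusted p = 0.486), and its 95% interval ran from -0.24 to 0.56.

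Arc was the 1 member that rose. It was at 24.5, 49.6 and 26.7 CPM in WT lines 3, 8 and 19, and at 133, 89.3 and 128 CPM in KO lines 3, 13 and 16. All 3 KO lines lay above the WT lines, among which line 8 was the highest. The rise of Arc was 1.80 on the log2 scale (SE 0.27, edgeR adjusted p = 0.00108), a 3.48-fold rise with a 95% interval from 2.27-fold to 5.35-fold. Without the library labelled KO line 3 it was 1.70 (adjusted p = 0.024), and with WT line 19 and KO line 3 both left out it was 1.57 and no longer passed (SE 0.52, adjusted p = 0.118).

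Ratios of members can also be taken within a library, where scaling plays no part. Each library had 3.17 to 4.64 counts of Egr1 per count of Fos in WT and 9.39 to 13.6 in the KO-labelled libraries. Arc per count of Egr1 was 0.0300, 0.0652 and 0.0296 in WT lines 3, 8 and 19 and 0.107, 0.112 and 0.159 in KO lines 3, 13 and 16. Ier2 per count of Fos was 0.127 to 0.162 in WT and 0.326 to 0.467 in the KO-labelled libraries. These ratios each hold Fos or Arc, which were called above, and so restate those differences on another scale. The ratios of Fosb to Fos and of Egr2 to Egr1 overlapped between genotypes. The summed level of the 10 members was 1381 to 1612 CPM in WT and 1185 to 1782 CPM in the KO-labelled libraries, and Egr1 made up most of it.

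The lines of a genotype also differed among themselves. The library labelled KO line 3 was the highest KO line for 7 of the 10 members, Fos, Fosb, Junb, Egr1, Egr2, Ier2 and Arc, where it was the highest KO line for 41.8% of all tested genes. KO line 16 was the highest for the other 3. In WT, line 19 was the highest for 6 members and line 8 for 4, against 37.1% and 34.4% of all tested genes. Within the Xist-high libraries, Fos was at 176 and 240 CPM in WT against 132 CPM in KO line 3, and Arc at 24.5 and 49.6 against 133 CPM. Within the Xist-low libraries, Fos was at 226 CPM in WT line 19 against 58.7 and 69.0 CPM, and Arc at 26.7 against 89.3 and 128 CPM. Each Xist state held only 1 library of 1 genotype, KO line 3 or WT line 19. With Xist state as a covariate the log2 fold changes were -1.24 for Fos and 1.93 for Arc (edgeR adjusted p = 0.0035 and 6.37e-04).

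Per kilobase of exon, the order of the levels in WT was Egr1 (184 ± 16.2 CPM per kb), Fos (91.0 ± 14.4), Jun (71.7 ± 12.7), Ier2 (19.7 ± 0.91), Junb (17.3 ± 4.28), Jund (11.0 ± 2.75), Arc (11.0 ± 4.56), Egr2 (4.95 ± 2.75), Fosl2 (4.95 ± 0.797) and Fosb (2.29 ± 1.43; SD, n = 3 lines each). Neighbours in this order were separated without overlap only between Egr1 and Fos, between Jun and Ier2 and between Fosl2 and Fosb. In the KO-labelled libraries, Arc moved up to the third place (38.2 ± 7.83 CPM per kb), behind Egr1 (211 ± 56.3) and Jun (44.1 ± 6.04), with Fos next at 36.8 ± 16.9. Jun, Arc and Fos overlapped with their neighbours there. Junb dropped below Jund, at 9.04 ± 1.72 against 16.6 ± 3.90 CPM per kb.

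Over the 6 libraries, the genes whose centred log2 CPM lay nearest to that of Fos were Mdfic, a regulator of transcription factors, Frmd7 and Klhdc1, with a mean absolute difference of 0.08, 0.08 and 0.10 log2 units. Nearest to Junb were Lyl1, Bmper and Robo2, at 0.06, 0.08 and 0.08, and nearest to Egr1 were Pank1, Ppfibp1 and Smad4, at 0.04, 0.04 and 0.05. None of the 9 is an immediate early gene of the lists used here.

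Other immediate early genes changed in both directions, in lists to be read beside 21.8% of all tested genes called higher and 20.4% lower. Of 17 transcription factor genes, 6 rose, 5 fell and 6 were not called, with a median log2 fold change of -0.04. Npas4, a factor induced by calcium influx in neurons, rose from 2.26 ± 0.175 to 7.40 ± 1.51 CPM (SD, n = 3 each), and Myc, the growth regulator, from 68.0 to 82.3 CPM over the WT lines to 137 to 168 CPM. Klf10, a TGF-beta-induced factor, rose by a log2 fold change of 0.76, and Crem, whose short form represses cyclic AMP-responsive genes, fell by 0.98. Families divided here too. Egr3 rose by 1.48 (edgeR adjusted p = 0.0047) while Egr4 was at -0.63 and not called, and Nr4a1 and Nr4a3, which encode orphan nuclear receptors, rose by 0.87 and 1.57 while Nr4a2 fell by 0.56. Fosl1, the remaining FOS family gene, was at 1.16 ± 0.309 CPM in WT and 0.586 ± 0.153 CPM in the KO-labelled libraries and was called lower (log2 fold change -0.96, edgeR adjusted p = 0.0419). The call of Fosl1 was lost without WT line 3, WT line 19, KO line 3 or KO line 16 (adjusted p from 0.0744 to 0.126), and that of Nr4a1 without WT line 3 or 19 (adjusted p = 0.0619 and 0.0727). With WT line 19 and KO line 3 both left out, Egr3 also missed the threshold (log2 fold change 1.44, edgeR adjusted p = 0.0589). Egr4 passed without WT line 8 or KO line 16 (adjusted p = 0.0153 and 0.0497), and without WT line 3 only 3 genes of the list were called lower. Egr3, Egr4, the Nr4a genes and Fosl1 were named after their values were seen.

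**Figure D3:**
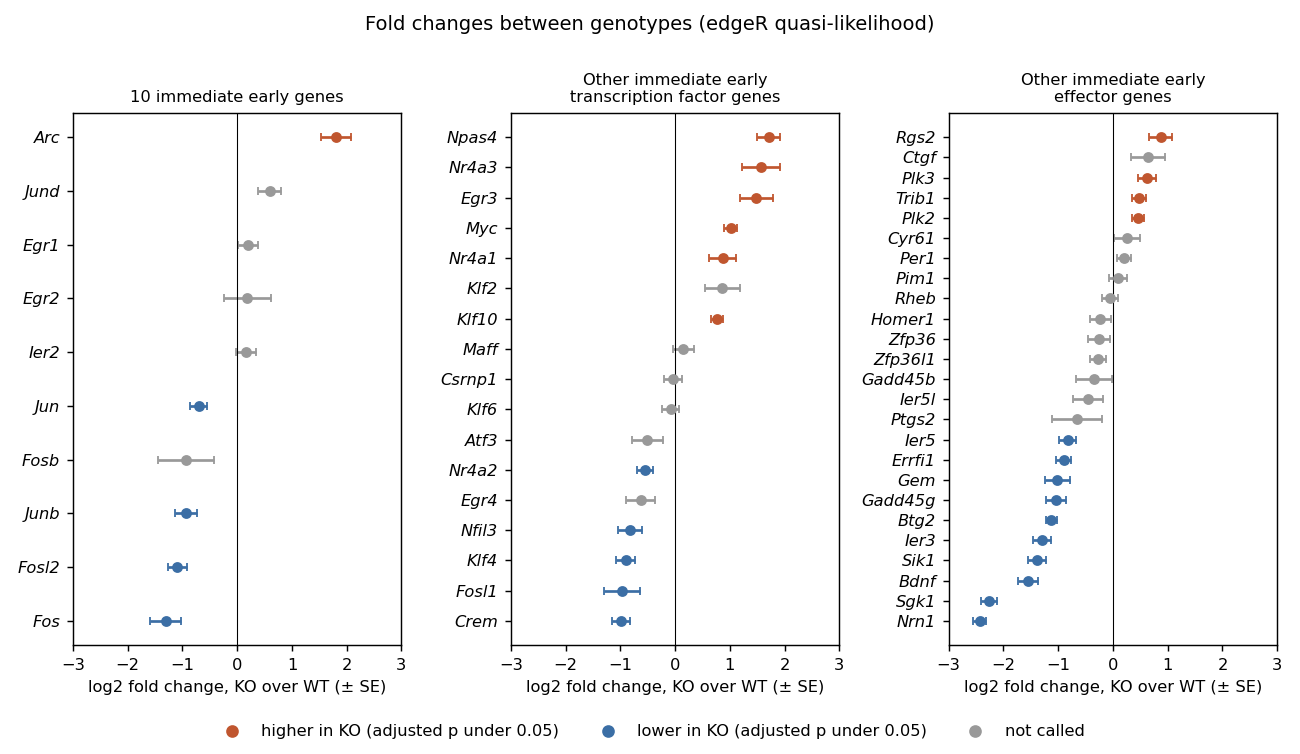
Log2 fold changes of KO over WT with their standard errors for the 10 genes, 17 other immediate early transcription factor genes and 25 effector genes. Orange marks genes called higher, blue genes called lower and grey genes not called. Arc and Npas4 lie at the top of their panels at 1.80 and 1.71, and Nrn1 at the bottom at -2.43.

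Of 25 immediate early genes with other products, 4 rose, 10 fell and 11 were not called, with a median log2 fold change of -0.34, and 2 rose without KO line 13. Among all tested genes, 21.8% were called higher and 20.4% lower. Nrn1, which encodes the neurite outgrowth protein neuritin, fell from 113 ± 10.3 to 21.0 ± 1.30 CPM and Sgk1, a kinase induced by serum and glucocorticoids, from 182 ± 22.2 to 38.0 ± 5.31 CPM (SD, n = 3 each). Btg2, an antiproliferative gene of neurogenic precursors, fell by a log2 fold change of 1.13, and Bdnf, the neurotrophin gene, by 1.55. Arc rose in libraries in which the effector genes Bdnf and Nrn1 fell. The 4 genes of this list that rose with Arc were Trib1, Plk2, Plk3 and Rgs2, at log2 fold changes of 0.48, 0.46, 0.62 and 0.87. These 4 were named after their values were seen.

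**Figure D4:**
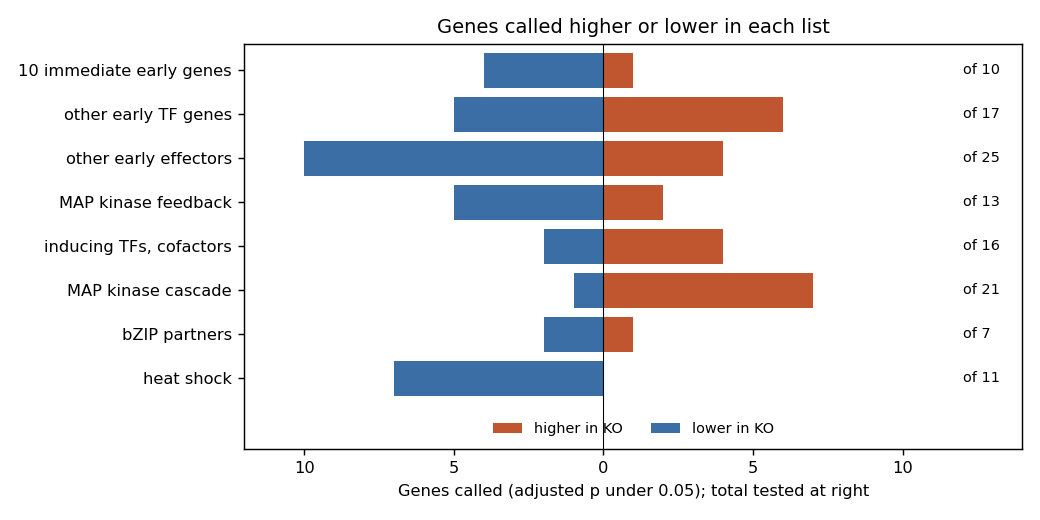
Number of genes called higher (orange, right) and lower (blue, left) in the KO-labelled libraries for 8 gene lists, with the number tested at the right. The heat shock list has 7 of 11 genes called lower and 0 higher, and the MAP kinase cascade list 7 of 21 higher and 1 lower. Among all tested genes, 20.4% were called lower and 21.8% higher.

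Genes upstream of the members were compared from the same fit, in which 21.8% of all tested genes were called higher and 20.4% lower. Of 16 transcription factors and cofactors that induce immediate early genes, 4 rose and 2 fell (median log2 fold change 0.20). Srf, the factor that binds the CArG box, rose from 49.2 ± 6.24 to 75.0 ± 3.30 CPM, and the coactivators Ep300 and Mkl2 rose by log2 fold changes of 0.62 and 0.57, while the SRF partner Elk1 fell by 0.54. Of 21 genes of the MAP kinase cascade and its receptors, 7 rose and 1 fell (median 0.01). The gene that fell was Rps6ka1, a kinase downstream of ERK, at 65.5 ± 8.99 CPM in WT and 21.9 ± 5.73 CPM in the KO-labelled libraries, while Mapk14, the p38 kinase gene, Rps6ka2 and Fgfr3 rose by log2 fold changes of 0.71, 0.85 and 1.44. With KO line 3 left out, 7 of the inducing factors rose and 5 of the cascade genes fell, and 4 cascade genes rose without WT line 3 or without WT line 8. Egfr, the receptor of the EGF in the medium, was at 502 ± 21.2 and 504 ± 62.7 CPM.

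Among 13 feedback inhibitors of the MAP kinase input, 5 fell and 2 rose (median log2 fold change -0.11). The shares among all tested genes were 20.4% called lower and 21.8% called higher. Dusp1, a phosphatase induced with Fos that switches off MAP kinases, fell from 46.7 ± 3.56 to 23.5 ± 2.22 CPM, and Dusp4, Dusp10 and Dusp14 fell by log2 fold changes of 0.93, 0.70 and 0.89. Nab1 and Nab2, which encode corepressors that bind EGR proteins, were not called, although Nab2 passed without KO line 3 (log2 fold change 0.40, adjusted p = 0.00319). Of 7 tested genes for other bZIP partners of AP-1, 1 rose and 2 fell (median 0.22). Mafg and Maf fell by 0.55 and 1.23, and Atf7 rose by 0.38, a call lost without WT line 3, WT line 19 or KO line 13 (adjusted p from 0.0851 to 0.14). The 2 feedback genes that rose, Dusp2 and Spry1, at 0.82 and 0.28, were named after their values were seen, and 0 rose without WT line 3, WT line 8, KO line 13 or KO line 16.

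Fos, Jun and heat shock genes are known to be induced when cells are detached and dissociated, and the cells here were detached before the nuclei were isolated. Over all tested genes, 20.4% were called lower and 21.8% higher. Of 11 heat shock genes, 7 fell and 0 rose (median log2 fold change -0.70), among them Hsph1 (-0.70), Hsp90aa1 (-0.96), Hspe1 (-0.96) and Hspa1b (-1.47). Their summed level overlapped between genotypes, at 3330 to 4170 CPM in WT and 2949 to 4122 CPM in the KO-labelled libraries, and Hsp90ab1 and Hspa8, the most abundant of them, were not called, except Hsp90ab1 without KO line 3 (log2 fold change 0.40, adjusted p = 0.0288). Without WT line 8 or KO line 13, 4 of the list fell. The part of detachment in the levels of Fos and Jun was not tested.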

How the data were processed

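The values deposited by the authors are raw counts, 1 column per library for 6 libraries, per the file headers. HTSeq 0.7.2, STAR, cutadapt 1.14 and DESeq2 are named, with build mm10, per the submitters' processing notes. Annotation and strand setting were not given in the sources used here. Genotype was tested on the counts in R 4.3.3 by edgeR 4.0.16 (filterByExpr, TMM scaling, robust quasi-likelihood fit of genotype over 6 libraries, 4 residual degrees of freedom before pooling of spread), two-sided, with Benjamini-Hochberg adjustment over all 13925 tested genes and a threshold of 0.05. SE was derived from the F statistic. Centred log2 CPM carried a prior count of 2. Exons came from GENCODE mouse release M21 and upstream sequences from RefSeq, both on GRCm38. Alternatives were other scalings, filters, DESeq2 1.42.0, limma-voom (limma 3.58.1), an Xist covariate (at least 1000 CPM) and leaving out libraries. The members and gene lists were chosen with earlier results of these data known. The genes named are the members, Fmr1, up to 4 genes per list by smallest p-value, and the 3 genes nearest to Fos, Junb and Egr1 over the 6 libraries. Outside this rule, Xist, Sox2, Nes, Tmem119, Tyrobp, Olig1, Prdx2, Egfr, Hsp90ab1, Hspa8 and the genes so marked in the text were chosen after their values were seen. One gene of a list is not reported here. Precision is limited by 3 lines a group.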

Additional observations from a re-analysis of the deposited data

How the results depend on the processing

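The calls of Fos, Fosl2, Jun and Junb held in all 16 alternative settings, with adjusted p-values of at most 0.0245, 0.00656, 0.0295 and 0.0237, and Arc passed in 15 of 16. Egr1, Egr2 and Ier2 passed in 0 of 16, and the sign of their estimates changed between settings. The number of members called higher was 2 and not 1 with DESeq2 size factors, upper-quartile scaling, no low-count filter, library size alone, 1 CPM in 3 libraries, the DESeq2 Wald test, limma-voom without and with sample weights, and Xist state as covariate, because Jund then passed too. Leaving out 1 library at a time gave 1 to 2 members called higher, 4 members called lower, 15 to 29 genes of the pathway lists called higher and 29 to 39 called lower, and 4262 to 7610 genes called in all, of which 1994 to 3666 were higher. Of all genes, 1994 were called higher without WT line 3, against 3040 with every library, and 15 pathway list genes against 24. No paired analysis was possible because the genotypes share only the line number 3, and nothing ties these lines to each other. The members had at least 91 counts in every library, the lowest being Fosb in KO line 16, and the intervals were widest for Fosb and Egr2 (SE 0.51 and 0.43), with the cause not tested.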
